A study of Homo sapiens with 2 samples.

Results

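The genes described here are 5 genes of basal epithelial identity, namely KRT5, KRT14, KRT15, TP63 and DLK2, chosen by name and found by symbol among the 36601 genes of the count tables. They were read in single cells of RWPE1, an immortalized line of normal prostate epithelium, with and without an oncogene pair. The tested cells, RWPE-ERG-mAKT, are RWPE1 that carry exogenous ERG, an ETS family transcription factor driven by the HNRNPA2B1 promoter in a retroviral vector, and myristoylated AKT1 (mAKT), which is held active at the membrane. The RWPE1 cells they are set against are labelled as a vector only control, while the text of the study calls them parental. Both are cell populations cultured in keratinocyte serum-free medium rather than tissue. The question put to the cells was whether ERG with active AKT changes the share of distinct cell populations or the level of marker genes.

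Each condition was 1 library of 10000 input cells, so no replicate spread exists, no test between conditions was made, and every interval given covers counting error only. Cells with over 2500 detected genes and under 7.5% of unique molecular identifiers (UMIs) from mitochondrial genes were used. This kept 14140 of 17355 barcodes of RWPE-ERG-mAKT and 9967 of 12504 barcodes of RWPE1. The kept cells held 225121037 UMIs in RWPE-ERG-mAKT and 192789925 in RWPE1, with medians of 13601 and 16972 UMIs per cell. The median mitochondrial share was 2.73% in RWPE-ERG-mAKT and 5.44% in RWPE1, and the mitochondrial limit took 107 and 1575 cells that had enough genes. The barcode totals exceed the stated input in both libraries, doublets were not removed, and 37 of the kept barcodes occurred in both libraries. ERG itself, the check of the labels, had 4680 UMIs in RWPE-ERG-mAKT and 278 in RWPE1 (log2 ratio 3.85, 3.67 to 4.03).

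Basal cells line the outer, matrix-facing layer of the prostate duct, and their cytoskeleton is built from obligate pairs of a type II and a type I keratin. KRT5 is the type II partner of the basal pair and KRT14 its usual type I partner, while KRT15 is another type I keratin that marks part of the basal compartment. TP63 encodes p63, a p53-family transcription factor required for basal and stratified epithelium, made in basal cells mostly as the shorter form that lacks the amino-terminal activation domain. DLK2 encodes a membrane protein related to the Delta ligands of Notch receptors. The droplet assay counts each molecule once near its 3' end, so levels are not divided by gene length and the p63 forms cannot be told apart.

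In GENCODE release 29 on GRCh38, KRT5 (ENSG00000186081) lies at chr12:52514575-52520687 on the minus strand. The type I genes KRT14 (ENSG00000186847, chr17:41582279-41586921) and KRT15 (ENSG00000171346, chr17:41513743-41522529) lie in the keratin cluster of chromosome 17, also on the minus strand. TP63 (ENSG00000073282) spans chr3:189631416-189897279 on the plus strand, 265864 bases of which 7454 are exonic. DLK2 (ENSG00000171462, chr6:43450352-43456632, minus strand) overlaps ABCC10 on the opposite strand, and ABCC10 had 813 UMIs in RWPE-ERG-mAKT and 1237 in RWPE1. Over the last 500 transcript bases the longest run that KRT14 shares with another keratin considered was 34 bases, with KRT17, and KRT15 shared 29 bases with KRT16, so reads of these type I genes that cover only such runs are uncertain.

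The RefSeq promoter windows (GRCh38.p14) of the member with the least different level, KRT5 at chr12:52520345-52520644, and of the member with the most different level, DLK2 at chr6:43455499-43455798, are printed 5′ to 3′ on the minus strand because ERG is an ETS factor. Each runs from 250 bases before to 50 bases after the gene's start, and capitals mark the ETS core GGAA on either strand.
KRT5: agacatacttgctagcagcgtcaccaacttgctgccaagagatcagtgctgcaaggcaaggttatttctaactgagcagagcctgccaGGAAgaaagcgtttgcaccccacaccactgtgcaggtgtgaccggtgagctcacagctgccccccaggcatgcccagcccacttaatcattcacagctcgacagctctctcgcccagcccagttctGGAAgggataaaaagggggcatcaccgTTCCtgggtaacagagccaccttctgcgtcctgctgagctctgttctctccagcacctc
DLK2: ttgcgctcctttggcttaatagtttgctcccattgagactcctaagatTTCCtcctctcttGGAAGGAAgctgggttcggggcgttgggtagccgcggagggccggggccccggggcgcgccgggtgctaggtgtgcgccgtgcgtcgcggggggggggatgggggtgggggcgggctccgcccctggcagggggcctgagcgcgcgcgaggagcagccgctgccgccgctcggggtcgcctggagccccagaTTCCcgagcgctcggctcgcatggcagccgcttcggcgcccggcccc
KRT5 held 3 such cores and DLK2 4, against a median of 3 over 35116 windows, of which 95.5% held at least 1. The window of TP63 at chr3:189631139-189631438, at the start of the long form, held 1. The AP-2 motif GCCNNNGGC occurred in DLK2 and not in KRT5 or TP63 (23.2% of all windows), and the AP-1 motif TGANTCA occurred in none of the 3 windows (7.71% of all). A decamer of the p53-family consensus began 97 bases before the KRT5 start and was found in 6.63% of all windows. Both strands were searched and overlapping matches counted. These matches describe letters only, not binding. KRT14 and KRT15 are named without a window.

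The 5 genes did not move together between the conditions. KRT5 stood at nearly the same summed level in both lines, KRT14 was higher in RWPE-ERG-mAKT, and KRT15, TP63 and DLK2 were lower there. Levels are given as CPM, each gene's UMIs over all kept cells per 1000000 UMIs of those cells. Of the 5 genes, 2 (TP63 and DLK2) were over 2-fold lower in RWPE-ERG-mAKT and 0 over 2-fold higher, where 7.09% of 24757 genes with at least 10 UMIs were over 2-fold lower and 4.49% over 2-fold higher. These counts, and those of the gene lists, use the ratio with 1 CPM added to both levels. The TP63 ratio did not pass 2-fold under median-of-ratios scaling (-0.98), in cells with 200 to 2500 genes (-0.80) or in cells with 7.5% or more mitochondrial UMIs (-0.70). The KRT15 ratio reached 2-fold without the mitochondrial filter (-1.0), with mitochondrial and ribosomal protein genes left out of the total (-1.04) and in the cells with 7.5% or more mitochondrial UMIs (-1.90). Within RWPE-ERG-mAKT the order of levels was KRT14, KRT5, TP63, KRT15 and DLK2, and in RWPE1 it was KRT5, KRT14, TP63, KRT15 and DLK2. The 95% intervals of neighbours in these orders did not overlap. Intervals are exact Poisson for CPM, conditional on the sum of both counts for log2 ratios, and exact binomial for shares of cells.

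**Figure D1:**
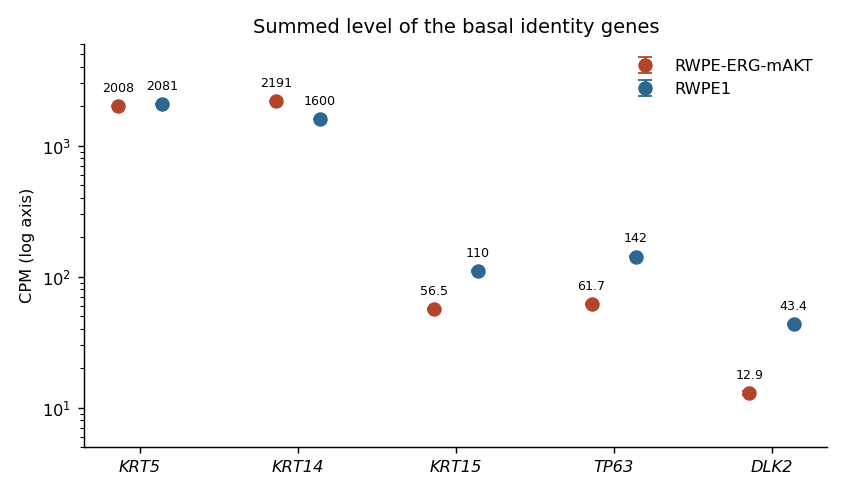
Summed level in CPM (vertical log axis) of each basal identity gene in the kept cells of RWPE-ERG-mAKT (red, left) and RWPE1 (blue, right), with 95% exact Poisson intervals that are mostly smaller than the points. KRT5 stood at 2008 and 2081 CPM, while DLK2 stood at 12.9 and 43.4 CPM.

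KRT5, the type II basal keratin, had 452117 UMIs (2008 CPM) in RWPE-ERG-mAKT and 401143 UMIs (2081 CPM) in RWPE1. The log2 ratio was -0.05 (-0.06 to -0.04), which was 0.17 under median-of-ratios scaling, a change of sign. That scaling moved the median of all genes by 0.22, which is more than the size of the KRT5 ratio, so no direction is given for KRT5. KRT5 was also the most evenly spread of the 5 genes. After each cell was thinned to 5000 UMIs, it was detected in 98.9% of RWPE-ERG-mAKT cells and 99% of RWPE1 cells, with a median of 9 and 10 UMIs per cell. Apart from the lowest and the highest 10% of cells, counts ran from 3 to 19 UMIs in both libraries. Its squared coefficient of variation beyond counting noise was 0.309 in RWPE-ERG-mAKT and 0.275 in RWPE1.

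KRT14, the type I partner, had 493140 UMIs (2191 CPM) in RWPE-ERG-mAKT and 308401 UMIs (1600 CPM) in RWPE1, a log2 ratio of 0.45 (0.45 to 0.46). This placed KRT14 above 85.8% of the genes by ratio. Thinned cells with at least 1 KRT14 UMI made up 83.4% (82.8 to 84.0%) of RWPE-ERG-mAKT and 70.5% (69.6 to 71.4%) of RWPE1. Unlike KRT5, KRT14 ran from cells with none to cells with many. Thinned cells held a median of 8 UMIs in RWPE-ERG-mAKT and 3 in RWPE1, and 25% of cells held at least 21 and 14 UMIs. At most 1 UMI was found in 30.3% of RWPE-ERG-mAKT cells and 42.1% of RWPE1 cells, while 10 or more were found in 46.4% and 32.1%. The distribution was thus shifted towards higher counts in RWPE-ERG-mAKT at both ends. Its squared variation beyond counting was 1.13 in RWPE-ERG-mAKT and 1.84 in RWPE1, higher than for 93.3% and 97.1% of the genes compared.

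KRT14 also moved with the depth of the cell. In the shallowest 25% of cells the mean after thinning was 17.3 UMIs in RWPE-ERG-mAKT and 13.7 in RWPE1, and in the deepest 25% 8.41 and 6.4. The higher level in RWPE-ERG-mAKT was present in each of the 4 depth bins taken by order within the library. Cells of RWPE1 were deeper in each, and KRT14 was lower in deeper cells, so these bins do not match depth. At like depth, bin 2 of RWPE-ERG-mAKT (median 11512 UMIs) averaged 13.2 and bin 1 of RWPE1 (11529 UMIs) 13.7. Bin 3 of RWPE-ERG-mAKT (16404 UMIs) averaged 10.9 and bin 2 of RWPE1 (15153 UMIs) 8.99. The part of depth in the KRT14 difference was not tested. By mitochondrial share the higher level in RWPE-ERG-mAKT was present in 3 of the 4 bins. In the 25% of kept cells with the highest share KRT14 averaged 8.38 UMIs in RWPE-ERG-mAKT and 10.4 in RWPE1, against 14.4 and 7.85 in the 25% with the lowest share. KRT14 was thus lower at a high mitochondrial share in RWPE-ERG-mAKT and higher in RWPE1, and the part of the mitochondrial share in the KRT14 difference was not tested. KRT5 varied less with depth, at 11.4 UMIs in the shallowest and 9.45 in the deepest 25% of RWPE-ERG-mAKT and 11.0 and 10.1 in RWPE1. Among the 107 RWPE-ERG-mAKT and 1575 RWPE1 cells above the mitochondrial limit, KRT14 was lower in RWPE-ERG-mAKT (log2 ratio -0.96), the opposite of the kept cells. With 2.5 to 5% mitochondrial UMIs in both libraries the ratio was 0.43, close to that of all kept cells.

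KRT15, the other type I basal keratin, was less abundant and the most unevenly spread. It had 12711 UMIs (56.5 CPM) in RWPE-ERG-mAKT and 21230 UMIs (110 CPM) in RWPE1, a log2 ratio of -0.96 (-1.0 to -0.93), so that the level in RWPE-ERG-mAKT was 51.3% of that in RWPE1. The share of thinned cells with a UMI was 14.9% (14.4 to 15.5%) in RWPE-ERG-mAKT and 30.9% (30.0 to 31.9%) in RWPE1. Without thinning the shares were 27.7% and 57.9%. The squared variation beyond counting was 11.8 in RWPE-ERG-mAKT and 3.64 in RWPE1, and 99.6% and 98.8% of the genes compared varied less. The top 10% of cells held 84.8% of the KRT15 UMIs in RWPE-ERG-mAKT and 60.4% in RWPE1. This measure also rises where few cells hold a UMI, and for DLK2 it was 100% and 62.8%. Cells with 2 or more KRT15 UMIs made up 5.86% of RWPE-ERG-mAKT and 12.5% of RWPE1, and cells with 5 or more 1.51% and 2.08%. At 10 or more UMIs, a count that few cells reached, the order was the other way, at 0.389% and 0.251%.

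TP63 had 13885 UMIs (61.7 CPM) in RWPE-ERG-mAKT and 27352 UMIs (142 CPM) in RWPE1. Its log2 ratio was -1.20 (-1.23 to -1.17), lower than for all but 4.73% of the genes, and its level in RWPE-ERG-mAKT was 43.5% of that in RWPE1. Thinned cells with a TP63 UMI made up 24.9% (24.2 to 25.6%) of RWPE-ERG-mAKT and 44.4% (43.4 to 45.4%) of RWPE1, and without thinning 48.7% and 78.6%. The lower level showed along the whole distribution, since 6.30% of RWPE-ERG-mAKT cells and 16.3% of RWPE1 cells held 2 or more UMIs. Relative to its mean, TP63 varied about as much in both, with a squared variation beyond counting of 1.08 in RWPE-ERG-mAKT and 0.892 in RWPE1.

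DLK2, the Delta-like gene, had the lowest ratio of the 5. It had 2908 UMIs (12.9 CPM) in RWPE-ERG-mAKT and 8372 UMIs (43.4 CPM) in RWPE1, a log2 ratio of -1.75 (-1.81 to -1.69), lower than for all but 1.89% of the genes. The level in RWPE-ERG-mAKT was 29.7% of that in RWPE1. A DLK2 UMI was found in 6.66% (6.25 to 7.08%) of thinned RWPE-ERG-mAKT cells and 18.0% (17.2 to 18.7%) of thinned RWPE1 cells. Cells with 2 or more UMIs made up 0.460% and 2.97%, so that nearly all positive cells held a single UMI. DLK2 is the member for which depth limits statements on single cells the most.

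**Figure D2:**
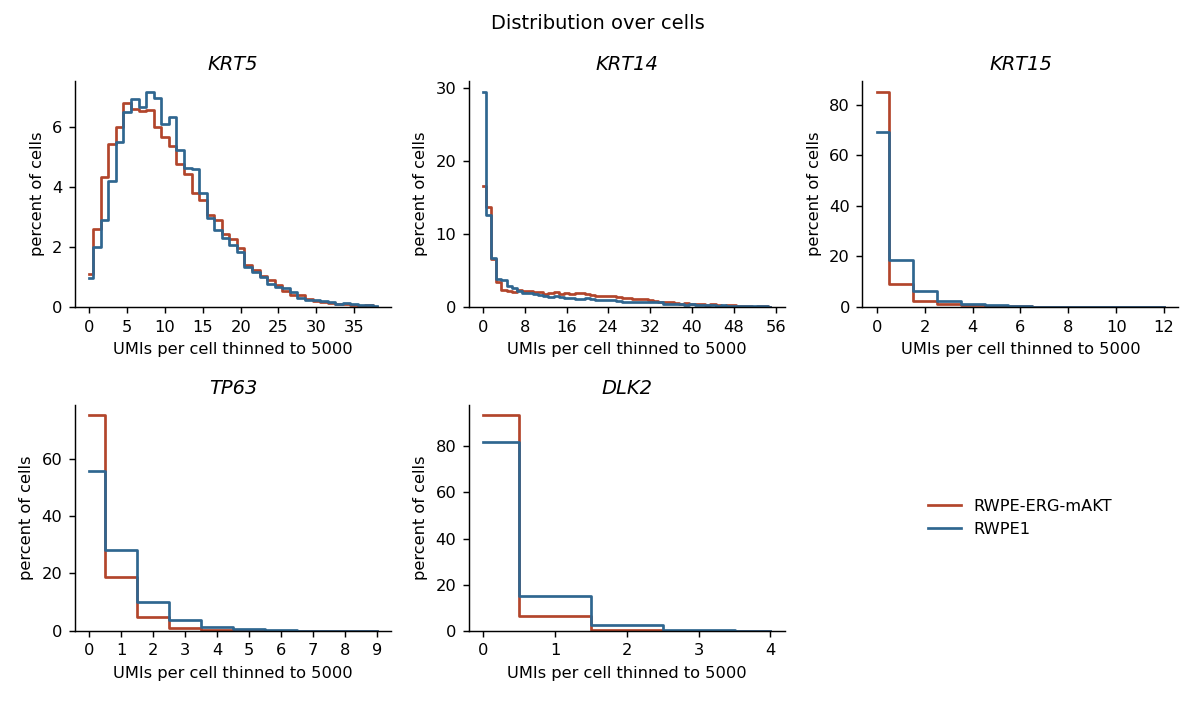
Percent of cells (vertical axis) by UMIs per cell thinned to 5000 UMIs (horizontal axis) for each basal identity gene, in RWPE-ERG-mAKT (red) and RWPE1 (blue); counts beyond the end of an axis are not drawn. KRT5 forms a single hump in both libraries, while KRT14 has 16.6% of RWPE-ERG-mAKT cells and 29.5% of RWPE1 cells at 0 UMIs and a long tail.

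As a gauge of free RNA, 53 RWPE1 barcodes with at least 2 UMIs of microglia or of choroid plexus genes were read. Of these, 5 were among the kept cells. Such cell types should lack basal keratins, but whether the barcodes are cells of these types was not tested. At 500 UMIs per barcode, 34.0% of the 53 had a KRT5 UMI (21.5 to 48.3%) and 34.0% a KRT14 UMI. The other kept RWPE1 cells stood at 60.2% and 38.4%. The KRT14 shares lie within counting error of each other. Free RNA can be a larger part of these shallow barcodes than of kept cells, also after thinning to 500 UMIs. These shares therefore do not settle whether a single KRT14 UMI marks a kept RWPE1 cell as expressing it. For KRT15 0 of the 53 had a UMI, which allows up to 6.72%, against 5.17% of kept RWPE1 cells. For TP63 and DLK2 1 of the 53 had a UMI (1.89%), against 6.58% and 2.24% of kept RWPE1 cells. Their median depth was 617 UMIs, against 16972 in the other kept cells. In RWPE-ERG-mAKT 0 of 17355 barcodes met this rule, and the shares of its kept cells at 500 UMIs were 59.2% for KRT5, 50.7% for KRT14, 2.69% for KRT15, 3.26% for TP63 and 0.757% for DLK2. The shares of KRT15, TP63 and DLK2 at this depth lie within the wide counting interval of the 53 barcodes, 0.0478 to 10.1% for TP63. So few barcodes cannot set these shares apart from free RNA, and the comparison does not bear on a difference between the lines.

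Across cells, KRT5 and KRT14 formed the tightest of the 10 pairs. Correlations are Pearson's r of log(1 + UMIs) over 14134 thinned RWPE-ERG-mAKT and 9967 thinned RWPE1 cells, and are descriptions, since cells of 1 library share their culture and preparation. KRT5 and KRT14 had r of 0.573 in RWPE-ERG-mAKT and 0.484 in RWPE1. Values with counting noise removed, here and below, are correlations of UMIs without the log, with counting noise taken from variances and covariance. They differ from r in scale as well as in noise, and for this pair they were 0.643 and 0.641. The paired keratins thus varied together across cells in both lines, although the level of KRT14 relative to KRT5 differed. The ratio of summed KRT14 to KRT5 UMIs was 1.09 in RWPE-ERG-mAKT and 0.769 in RWPE1.

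TP63 went weakly with both keratins. For KRT5 and TP63 r was 0.194 in RWPE-ERG-mAKT and 0.187 in RWPE1, and 0.428 and 0.368 with counting noise removed. For KRT14 and TP63 it was 0.193 and 0.196, and 0.328 and 0.346 with noise removed. A TP63 UMI was found in 26.9% of KRT14-positive and 14.6% of KRT14-negative RWPE-ERG-mAKT cells, and in 47.3% and 37.5% of the RWPE1 cells so split. TP63 was lower in RWPE-ERG-mAKT, yet its r with either keratin was of like size in both libraries.

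KRT15 had r of 0.172 with KRT14 in RWPE-ERG-mAKT and 0.0236 in RWPE1. KRT15 was detected in 16.6% of KRT14-positive and 6.79% of KRT14-negative RWPE-ERG-mAKT cells, but in 30.7% and 31.4% of the RWPE1 cells so split. The difference between the libraries in this relation was not tested. With KRT5, KRT15 had r of 0.0445 in RWPE-ERG-mAKT and 0.0654 in RWPE1, and with TP63 0.0408 and 0.0185. Sparse counts give low values of r, but the values stayed low with counting noise removed. They were then 0.0290 in RWPE-ERG-mAKT and 0.0976 in RWPE1 with KRT5, and 0.0778 and 0.0243 with TP63. With KRT14 they were 0.171 and 0.0810. KRT15 thus went little with KRT5 and TP63 across cells, and none of these small values is read as a relation.

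DLK2 correlated most with KRT14 in RWPE-ERG-mAKT (r of 0.109, against 0.0373 in RWPE1) and with KRT5 (0.0821 and 0.0720). After removal of counting noise the DLK2 pair with KRT14 stood at 0.394 in RWPE-ERG-mAKT and 0.156 in RWPE1, the pair with KRT5 at 0.346 and 0.240, and the pair with TP63 at 0.173 and 0.0158. All 5 genes were detected together in 47 of 14134 thinned RWPE-ERG-mAKT cells (0.333%, 0.244 to 0.442%) and in 222 of 9967 RWPE1 cells (2.23%, 1.95 to 2.54%). KRT5, KRT14 and TP63 were detected together in 22.4% and 33.3%.

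**Figure D3:**
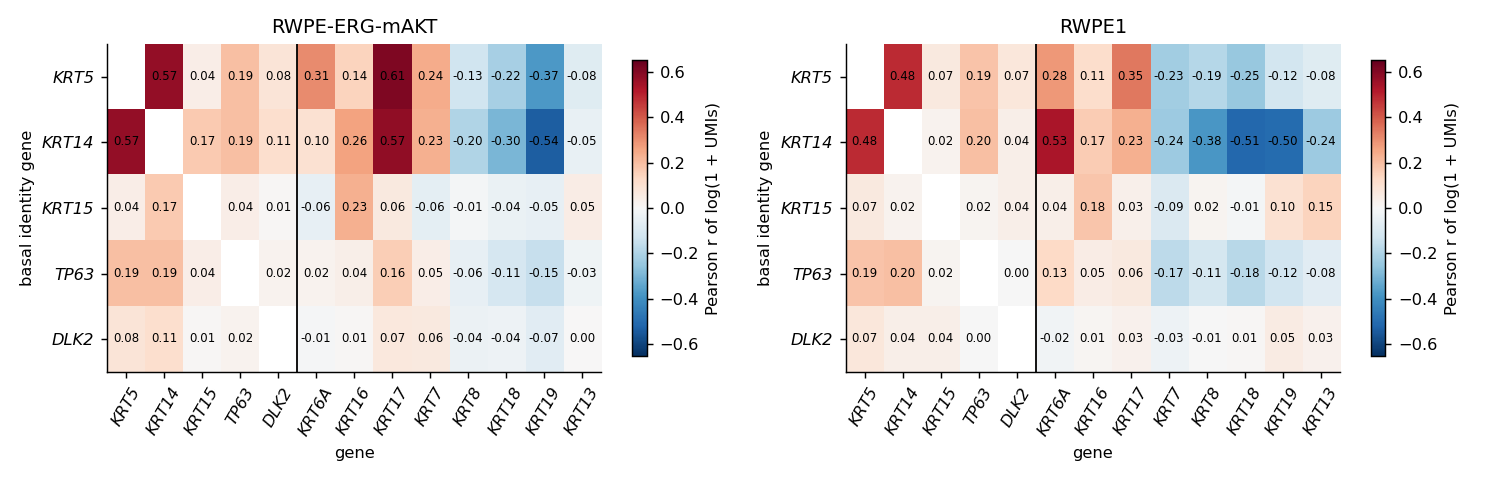
Pearson's r of log(1 + UMIs) over thinned cells for each basal identity gene (rows) with the other members and 8 further keratins (columns, split by the line), in RWPE-ERG-mAKT (left) and RWPE1 (right), with red above and blue below 0. KRT5 with KRT14 stands at 0.57 and 0.48, and KRT14 with KRT19 at -0.54 and -0.50.

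Cells high in KRT14 were low in the simple-epithelium keratins KRT18 and KRT19, which are typical of luminal cells. KRT14 had r of -0.535 with KRT19 and -0.297 with KRT18 in RWPE-ERG-mAKT, and -0.498 and -0.508 in RWPE1. Cells with no KRT14 UMI held a mean of 4.57 KRT19 UMIs in RWPE-ERG-mAKT and 5.80 in RWPE1. Cells with 15 or more KRT14 UMIs held 0.301 and 1.67. KRT19 was detected in 77.3% of RWPE-ERG-mAKT cells without KRT14 and in 16.4% of those with 15 or more, and in 94.9% and 44.5% of the RWPE1 cells so split. KRT18 averaged 3.61 UMIs in RWPE-ERG-mAKT cells without KRT14 and 1.92 in those with 15 or more, and 7.48 and 2.51 in RWPE1. The opposition of KRT14 to these keratins was present in both lines.

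KRT7, a simple keratin of ducts, did not follow KRT18 and KRT19. With KRT14 it had r of 0.232 in RWPE-ERG-mAKT and -0.238 in RWPE1, and with KRT5 0.240 and -0.226. Mean KRT7 was 11.8 UMIs in cells without KRT14 and 15.7 in cells with 15 or more in RWPE-ERG-mAKT, but 11.1 and 8.80 in RWPE1. The sign of the relation therefore differed between the libraries, which was not tested.

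The keratins of activated and wounded epithelium, KRT6A and KRT17, also differed between the libraries in their r with KRT14. KRT17 had r of 0.574 with KRT14 and 0.607 with KRT5 in RWPE-ERG-mAKT, and 0.230 and 0.345 in RWPE1. KRT6A had r of 0.101 with KRT14 in RWPE-ERG-mAKT and 0.531 in RWPE1. With KRT5 its r was of like size in both, at 0.306 in RWPE-ERG-mAKT and 0.280 in RWPE1. In RWPE1, KRT6A was scarce in cells without KRT14, with a mean of 0.185 UMIs, and stood at 2.59 in cells with 15 or more. In RWPE-ERG-mAKT nearly all cells had KRT6A, with 9.18 UMIs in cells without KRT14 and 12.8 in those with 15 or more. Summed KRT6A was 2378 CPM in RWPE-ERG-mAKT and 167 CPM in RWPE1, and summed KRT17 7036 and 2193 CPM.

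**Figure D4:**
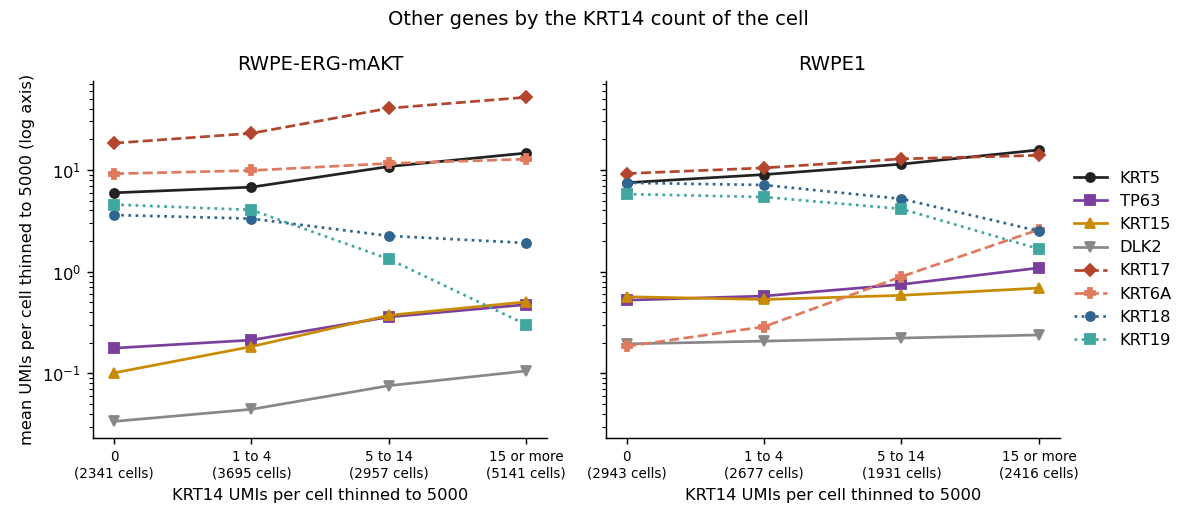
Mean UMIs per cell thinned to 5000 UMIs (vertical log axis) of the other members and of 4 further keratins, by the KRT14 UMIs of the cell (horizontal axis, with cells per bin), in RWPE-ERG-mAKT (left) and RWPE1 (right). KRT5 and TP63 are higher and KRT18 and KRT19 lower in the bins with more KRT14 in both libraries, while KRT15 differs by bin mainly in RWPE-ERG-mAKT (0.101 UMIs at 0 and 0.506 at 15 or more).

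Among the other members, KRT5 had a mean of 5.97 UMIs in RWPE-ERG-mAKT cells without KRT14 and 14.7 in those with 15 or more, and 7.49 and 15.7 in RWPE1. TP63 had 0.177 and 0.475 in RWPE-ERG-mAKT and 0.525 and 1.09 in RWPE1. In every KRT14 bin TP63 was the lower in RWPE-ERG-mAKT, including cells with 15 or more KRT14 UMIs. DLK2 stood at 0.0337 and 0.106 in RWPE-ERG-mAKT and at 0.195 and 0.239 in RWPE1, also lower in each bin. The lower TP63 and DLK2 were thus present at each KRT14 level.

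Cells sorted by TP63 gave the same order from the other side. From 0 to 3 or more TP63 UMIs, mean KRT14 was 11.1, 15.8, 17.4 and 20.6 in RWPE-ERG-mAKT and 7.36, 9.49, 12.7 and 16.8 in RWPE1. KRT19 was 2.49, 1.44, 1.18 and 0.60 UMIs in RWPE-ERG-mAKT and 4.65, 4.26, 3.83 and 3.36 in RWPE1. The top bin held 205 RWPE-ERG-mAKT cells (1.45%) and 629 RWPE1 cells (6.31%). DLK2 hardly followed, at 0.0678 to 0.0927 UMIs over these bins in RWPE-ERG-mAKT and 0.207 to 0.232 in RWPE1.

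The few cells with much KRT15 differed from the rest in other genes. In RWPE-ERG-mAKT 465 cells (3.29%) held 3 or more KRT15 UMIs, and in RWPE1 597 cells (5.99%). KRT16, an activation keratin, averaged 1.91 UMIs in these cells against 0.364 in cells without KRT15 in RWPE-ERG-mAKT, and 2.06 against 0.250 in RWPE1. FXYD3, a regulator of the sodium pump, averaged 2.13 against 1.1 in RWPE-ERG-mAKT and 1.73 against 0.794 in RWPE1. KRT13, the hillock keratin, averaged 2.02 against 0.813 in RWPE1, and in RWPE-ERG-mAKT it was low throughout (0.0774 against 0.0240). KRT14 averaged 21.4 against 11.6 in RWPE-ERG-mAKT and 12.2 against 8.96 in RWPE1. TP63 averaged 0.452 against 0.324 in RWPE-ERG-mAKT and 0.781 against 0.704 in RWPE1. KRT15 and KRT16 share a run of 29 bases near their 3' ends, and its part in their correlation was not tested.

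Ranked over 5566 genes present in at least 10% of thinned cells of each library, by the mean of r in both libraries, the genes most like KRT14 were KRT5 (0.528), the small heat shock protein gene HSPB1 (0.515), KRT17 (0.402), FGFBP1 (0.366), S100A2 (0.359) and PMEPA1 (0.338). The genes least like it were KRT19 (-0.517), KRT18 (-0.403) and KRT8 (-0.286). For KRT5 the list was KRT14, KRT17 (0.476), HSPB1 (0.391), the calcium-binding protein gene S100A2 (0.333), KRT6A (0.293) and the glutathione transferase gene GSTP1 (0.260), with KRT19 (-0.247), KRT18 (-0.232) and RPL13 (-0.208) at the other end. KRT5 and KRT14 thus had each other and HSPB1 among their nearest genes, while KRT15 ranked 282 for KRT5 and 178 for KRT14. The 2 libraries did not rank alike throughout. PLAC8 had r of -0.501 with KRT14 in RWPE1, second lowest there after KRT18, but was nearly absent from RWPE-ERG-mAKT (0.00940 UMIs per thinned cell without KRT14, against 2.69 in RWPE1).

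For TP63 the nearest genes were KRT14 (0.195), KRT5 (0.190), the long RNA MIR31HG (0.178), the nuclear RNA MALAT1 (0.171), HSPB1 (0.167) and TANC2 (0.142), and the lowest were RPL13 (-0.166), RPS19 (-0.145) and KRT18 (-0.145). TP63 is a long gene and MALAT1 stays in the nucleus. MALAT1 averaged 57.0 UMIs in RWPE-ERG-mAKT cells with 3 or more TP63 UMIs against 41.4 in those with 0, and 66.0 against 45.9 in RWPE1. Ribosomal protein genes had r of -0.181 with TP63 in RWPE-ERG-mAKT and -0.172 in RWPE1 as a sum. Whether unspliced nuclear molecules enter the TP63 count was not tested.

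For KRT15 the nearest were KRT16 (0.206), HSPB1 (0.156), FXYD3 (0.154), CD9 (0.135), FTH1 (0.135) and IER2 (0.117), and the lowest ACTB (-0.120), TMSB10 (-0.118) and TUBA1B (-0.0951), all genes of the cytoskeleton. For DLK2 no gene passed a mean of 0.0773, the value of the ribosomal protein gene RPS21, followed by KRT5 (0.0771) and KRT14 (0.0732). At counts this low the DLK2 ranking, made over 5567 genes, is not read further.

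Within the keratin family, KRT5 made up a smaller share of type II keratin UMIs in RWPE-ERG-mAKT (26.7%) than in RWPE1 (43.3%), with KRT6A at 31.6% and 3.48%. KRT14 made up 20.4% of type I UMIs in RWPE-ERG-mAKT and 24.9% in RWPE1, KRT15 0.527% and 1.72%, and KRT17 65.7% and 34.2%. The ratio of all type II to all type I UMIs was 0.702 and 0.748. The basal pair thus took a smaller share of both classes and KRT6A and KRT17 a larger one, while the balance of the classes differed by less. The activation keratins, KRT6A among them, were over 2-fold higher in RWPE-ERG-mAKT in 4 of 5, where 4.49% of all genes were. KRT6B had a log2 ratio of 6.87 (6.68 to 7.06), KRT6C 6.37, KRT6A 3.83 and KRT17 1.68, while KRT16 was not over 2-fold higher, at 0.31. Of the simple keratins 1 of 4 was over 2-fold lower, where 7.09% of all genes were. This was KRT18 at -1.14, beside KRT19 at -0.87, KRT8 at -0.45 and KRT7 at 0.35. KRT13, at -4.93, and KRT4 were both lower.

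Genes known to be activated or repressed by p63 went both ways. Of 24 such genes, 5 were over 2-fold lower in RWPE-ERG-mAKT and 4 over 2-fold higher (7.09% and 4.49% of all genes), with a median log2 ratio of -0.07 (1 CPM added), which was 0.15 under median-of-ratios scaling, where all genes had -0.05 and 0.17. The list mixes both kinds of target, so its median does not bear on whether targets follow TP63. The growth factor receptor FGFR2 had 2.05 CPM in RWPE-ERG-mAKT and 56.3 CPM in RWPE1 (log2 ratio -4.78, -4.91 to -4.64), and EGFR 405 and 1180 CPM (-1.54). The laminin receptor subunit ITGA3 stood at 59.0 and 162 CPM (-1.46). The cell cycle inhibitor CDKN1A stood at 104 and 32.9 CPM (1.66), and S100A2 at 9247 and 3795 CPM (1.29). At cell level, the summed UMIs of this list had r of 0.132 with TP63 in RWPE-ERG-mAKT and 0.155 in RWPE1, but 0.288 and 0.523 with KRT14. S100A2 supplied most of this sum, and TP63 is counted at far lower depth than KRT14, so the 2 members' values are not ranked.

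Hemidesmosome and laminin genes, which fix basal cells to the matrix, were over 2-fold lower in 2 of 12 and higher in 1 of 12, where 7.09% and 4.49% of all genes were, with a median of -0.46. ITGA3, given above, was among the lower, and LAMB3 was the higher (73.7 CPM in RWPE-ERG-mAKT and 33.9 CPM in RWPE1, 1.12). ITGA6, the integrin subunit used to sort basal cells, stood at 88.5 and 168 CPM (-0.93). Summed over the list, r with KRT14 was 0.368 in RWPE-ERG-mAKT and 0.376 in RWPE1, and r with TP63 0.232 and 0.169. COL17A1, a hemidesmosome collagen, was detected in 18.2% of RWPE-ERG-mAKT cells without KRT14 and 59.4% of those with 15 or more, and in 41.9% and 68.1% in RWPE1. Adhesion genes of the basal layer thus followed KRT14 across cells in both lines.

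Of 15 other basal markers, 3 were over 2-fold lower and 2 over 2-fold higher (7.09% and 4.49% of all genes), with a median of -0.40. The ligand gene NRG1 stood at 16.2 CPM in RWPE-ERG-mAKT and 97.9 CPM in RWPE1 (-2.59), and the protocadherin-like FAT2 at 29.6 and 52.7 CPM (-0.83). The genes over 2-fold higher were S100A2, given above, and MME at 12.8 and 5.25 CPM (1.28). With TP63, FAT2 had r of 0.0852 in RWPE-ERG-mAKT and 0.143 in RWPE1, and 0.376 and 0.523 with counting noise removed.

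DLK2 belongs to the Delta-like family, and the Notch list held 14 measured genes of which 2 were over 2-fold lower and 1 over 2-fold higher, near the 7.09% and 4.49% of all genes for a list this small (median -0.16, and 0.06 under median-of-ratios scaling). The coactivator MAML2 stood at 15.5 CPM in RWPE-ERG-mAKT and 210 CPM in RWPE1 (-3.76), the receptor NOTCH1 at 30.1 and 58.1 CPM (-0.95), and the target genes HES1 at 83.4 and 43.2 CPM (0.95) and HES4 at 102 and 57.0 CPM (0.84). DLK1, the closest relative of DLK2, had 0 UMIs in both libraries. Summed Notch genes had r of -0.00484 with DLK2 in RWPE-ERG-mAKT and -0.0207 in RWPE1.

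Lists of other states were read for what they share with the members, beside 4.49% of all genes over 2-fold higher and 7.09% over 2-fold lower. Among squamous differentiation genes 5 of 16 measured were over 2-fold higher and 3 lower, and r of their sum with KRT14 was 0.0941 in RWPE-ERG-mAKT and 0.0765 in RWPE1. Immediate early genes were over 2-fold higher in 7 of 11, IER2 most at 652 and 57.8 CPM (3.50), and their sum had r of 0.239 with KRT14 in RWPE-ERG-mAKT and 0.0640 in RWPE1. Epithelial transcription factors were over 2-fold higher in 4 and lower in 2 of 19, mesenchymal genes in 1 and 2 of 12, S phase genes in 2 and 0 of 20, and mitosis genes in 0 of 20 either way. Mitosis genes had r of -0.0290 with KRT14 in RWPE-ERG-mAKT and -0.0822 in RWPE1. KRT14 thus went little with the mitosis genes across cells in either line. Luminal prostate genes were over 2-fold higher in 2 and lower in 1 of 12, and KLK3, the gene of prostate-specific antigen, had 0 and 1 UMIs.

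Markers of other cell types were near 0 in both libraries. The endothelial list summed to 1.16 CPM in RWPE-ERG-mAKT and 1.03 CPM in RWPE1, with none of 6 genes at 0. The immune list summed to 13.9 and 10.0 CPM, nearly all from CD68 (13.4 and 8.73 CPM), with 1 of 6 genes at 0 in RWPE-ERG-mAKT. The neuroendocrine list summed to 6.77 and 4.88 CPM, with 1 of 6 genes at 0 in RWPE1. Microglia genes summed to 0 and 0.0415 CPM, with both genes at 0 in RWPE-ERG-mAKT, and choroid plexus genes to 0.0844 and 0.213 CPM, with 1 of 4 genes at 0 in each library. The epithelial label was met by KRT5, KRT17 and KRT7, for which the lowest share of thinned cells with a UMI was 97.4%, for KRT17 in RWPE1.

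The lower TP63, KRT15 and DLK2 kept their direction under every setting of cells and scaling tried, from -0.70 to -1.27 for TP63, -0.61 to -1.90 for KRT15 and -1.53 to -4.18 for DLK2. In the range of 200 to 2500 genes that the study's methods name, with 2775 RWPE-ERG-mAKT and 362 RWPE1 cells, TP63 stood at -0.80, KRT15 at -0.61, DLK2 at -1.72, KRT14 at 0.57 and KRT5 at -0.03. TP63 and KRT15 were thus closer between the lines in such cells than in cells with more genes.

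**Figure D5:**
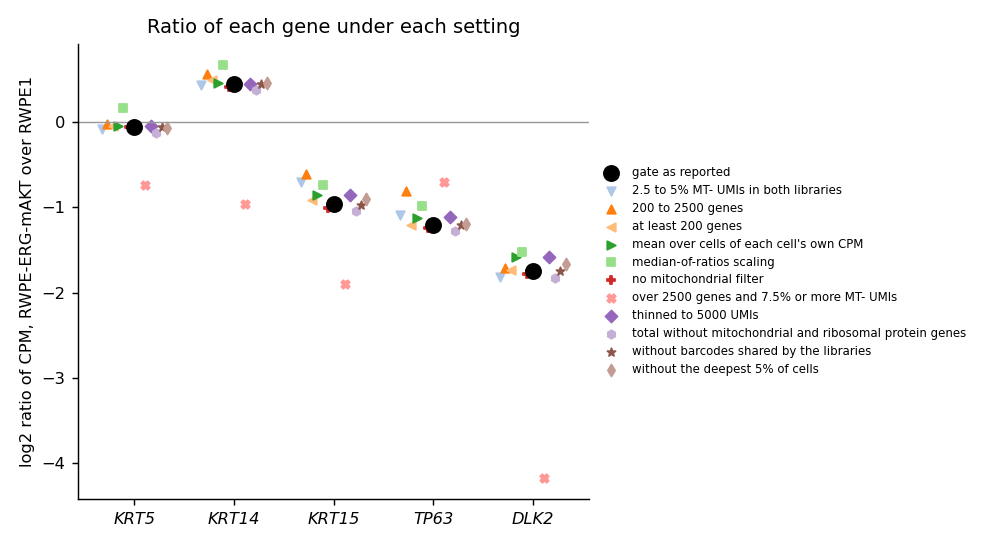
Log2 ratio of CPM, RWPE-ERG-mAKT over RWPE1 (vertical axis), of each basal identity gene in the cells as reported (black) and under 11 other settings (coloured marks). TP63, KRT15 and DLK2 lie below 0 under each setting, KRT14 lies above 0 in all but the cells with 7.5% or more mitochondrial UMIs (-0.96), and KRT5 lies above 0 only under median-of-ratios scaling (0.17).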

How the data were processed

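The authors quantified 10x Genomics Chromium 3' v3.1 libraries with Cell Ranger 7.1.0 on hg38, per the submitters' processing notes. The deposited values are UMI counts of 36601 genes in each called barcode, without normalization. Whether intronic reads were counted is not given in the sources used here. Gene positions came from GENCODE release 29 and promoter windows from RefSeq, which held 3 of the 5 genes. Computation used scipy 1.17.1 and numpy 2.4.6 under Python 3.11.15, with pandas 2.3.3 for tables and matplotlib 3.10.9 for figures.

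The cells kept had over 2500 genes with a UMI and a mitochondrial share under 7.5%. The study's methods name 200 to 2500 genes, and that range was run as an alternative. Levels are UMIs summed over cells, in CPM. Shares, spreads and correlations use cells thinned without replacement to 5000 UMIs (seed 1), which left out 6 RWPE-ERG-mAKT and 0 RWPE1 cells. A share rises with depth, which thinning equalises, while UMIs near 0 stay imprecise. Intervals are at 95%. Doublets were neither called nor removed.

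Named genes are the 5 members, for each member the 6 genes with the highest and the 3 with the lowest mean correlation, and up to 4 genes of each list with at least 20 CPM and the largest ratio, of which 1 is not reported here. Genes named by KRT14, TP63 or KRT15 bin, KRT6C and MME were chosen after their values were seen. List members needed at least 10 UMIs over both libraries, and list counts and medians have 1 CPM added. The members and lists were chosen with earlier results of these data known. Alternatives were other gates, scalings, totals, depths and correlations. Thinning, the spread beyond counting, the correlations, the log2 ratios with their intervals and the intervals of shares were tested on simulated data. The other computations were not.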

Additional observations from a re-analysis of the deposited data

How the results depend on the processing

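Log2 ratios, given here for KRT5, KRT14, KRT15, TP63 and DLK2 in that order, moved by more than their counting interval in 42 of 55 values and kept their sign except as named. The mean of each cell's own CPM gave -0.037 for KRT5, -0.85 for KRT15, -1.12 for TP63 and -1.58 for DLK2. Median-of-ratios scaling gave 0.17 (KRT5 changing sign), 0.68, -0.74, -0.98 and -1.53, so that TP63 was then under 2-fold lower. Without a mitochondrial filter the values were -0.060, 0.42, -1.0 and -1.24 for all but DLK2. With at least 200 genes KRT14 stood at 0.49 and KRT15 at -0.91, and with 200 to 2500 genes KRT5, KRT14, KRT15 and TP63 stood at -0.025, 0.57, -0.61 and -0.80. Without the deepest 5% of cells KRT5, KRT14, KRT15 and DLK2 were at -0.066, 0.46, -0.90 and -1.66, and in cells thinned to 5000 UMIs KRT5, KRT15, TP63 and DLK2 were at -0.042, -0.86, -1.11 and -1.58. With mitochondrial and ribosomal protein genes left out of the total they were -0.12, 0.38, -1.04, -1.27 and -1.82. Chosen after seeing the data, cells with 2.5 to 5% mitochondrial UMIs gave -0.074, 0.43, -0.70, -1.09 and -1.82, and cells with 7.5% or more gave -0.74, -0.96 (KRT14 changing sign), -1.90, -0.70 and -4.18, on only 107 RWPE-ERG-mAKT cells. The cause of these moves was not tested. Without the barcodes found in both libraries all 5 stayed within their intervals.

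Of 100 pair correlations under 5 other settings, 48 left the 95% Fisher interval over cells and none of size 0.1 or more changed sign; KRT5 with KRT14 ran from 0.557 to 0.629 in RWPE-ERG-mAKT and from 0.484 to 0.537 in RWPE1. Cells with at most 2 mitosis UMIs were 2628 in RWPE-ERG-mAKT and 2279 in RWPE1. Shares rose with the thinning depth in both libraries. The spread beyond counting stayed within 1.5 times in 29 of 30 values, and the balance of type II over type I keratins in both libraries. No paired analysis was possible because each condition has 1 library. From 3000 to 10000 UMIs per cell the shares in RWPE-ERG-mAKT ran from 4.09 to 11.9% for DLK2, 17.0 to 38.5% for TP63 and 10.6 to 20.8% for KRT15.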

Other observations

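HSPB1, which encodes a small heat shock protein, was among the 6 genes most like each of the 5 members. For DLK2 it did so only at rank 6 with a mean r of 0.0619, in the ranking that is not read further. Its r with KRT14 was 0.639 in RWPE-ERG-mAKT and 0.391 in RWPE1, with TP63 0.180 and 0.154, and with KRT15 0.153 and 0.160. Cells with 15 or more KRT14 UMIs held a mean of 14.1 HSPB1 UMIs in RWPE-ERG-mAKT and 4.19 in RWPE1, and cells without KRT14 2.98 and 1.31. PMEPA1, an inhibitor of TGF-beta signalling, had r of 0.495 with KRT14 in RWPE-ERG-mAKT and 0.182 in RWPE1. Vimentin (VIM), a mesenchymal filament gene, averaged 1.99 UMIs in RWPE-ERG-mAKT cells with 15 or more KRT14 UMIs and 0.521 in those without KRT14, and 3.64 and 0.496 in RWPE1, so that it was higher where KRT14 was high in both lines.

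Genes of some chromosome regions correlated with KRT14 together in each line. In 10 Mb windows of RWPE-ERG-mAKT with at least 15 genes, all 27 genes at chr11:110000001-120000000 had positive r (mean 0.130), and so had all 18 genes at chr11:100000001-110000000 (mean 0.0841), while 8.33% of 24 genes at chr20:50000001-60000000 were negative (mean 0.0963). The median window stood at 0.000697. On chromosome 16, 96.9% of 32 genes at 60000001-70000000 were negative (mean -0.100), 95.2% of 21 genes at 70000001-80000000 (mean -0.0868) and 88.2% of 34 genes at 80000001-90000000 (mean -0.101). The same windows in RWPE1 had means of -0.0200 and -0.0171 on chromosome 11, -0.0163 on chromosome 20 and -0.0160, -0.0104 and -0.0116 on chromosome 16. The windows at the ends in RWPE1 were others. At chr9:130000001-140000000, 91.7% of 60 genes were negative there, and 7.69% of 26 genes at chr22:30000001-40000000 and 7.89% of 38 genes at chr3:40000001-50000000. The means of these windows were -0.0328, 0.0151 and -0.00569 in RWPE-ERG-mAKT and -0.0560, 0.055 and 0.0525 in RWPE1. For KRT5 in RWPE-ERG-mAKT the 3 chromosome 16 windows were again the lowest (-0.0647, -0.0585 and -0.0633) and chr11:110000001-120000000 the highest (0.0841). These are values of 1 library each, and no account of them was tested.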
